A study of Homo sapiens with 4 samples.

Results

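Isolated common regions are sites of open chromatin that were listed in every library of the series and had no other listed site within 100 kb on either side. Peaks of the 4 deposited lists that shared at least 1 bp were merged into regions on hg19. A region was common if all 4 lists held a peak in it. The members were chosen by these peak positions alone, so their presence in every list and their distance from other regions are given as a description. The rule took 424 of 40447 common regions (1.05%) and of 78788 merged regions in all.

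The cells were HCT116, a human colorectal cancer cell line of wild-type genotype, so all groups share 1 cell line. One group received 0.5 µg/ml tunicamycin for 6 h, and its control group received 0.1% DMSO, the solvent, for 6 h. Each group held 2 libraries, numbered 1 and 2, which the series calls biological replicates. The labels do not say whether they came from separate cultures, so differences between them may be technical in part.

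ATAC-seq maps open chromatin with a transposase, which cuts where nucleosomes leave DNA exposed and inserts sequencing adapters there. Open sites usually crowd around promoters and their nearby enhancers. Long stretches with few genes, called gene deserts, hold few open sites, and those that exist can be distal enhancers or sites bound by architectural proteins such as CTCF. Tunicamycin stops cells from adding N-linked sugars to new proteins, which then misfold and burden the endoplasmic reticulum, and the comparison asks which open sites differ under that stress. Because no hg19 annotation or genome was used here, the members are named by position, without genes, motifs or sequence. Whether they lie in gene deserts was therefore not checked, and they are described here as isolated regions.

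The lists held 58467 and 62526 peaks after tunicamycin, and 56581 and 56566 peaks after DMSO. Summit strength is given in 3 ways. The fold over local background and the −log10 q-value are the authors' own values for each peak. Reads at the summit and the local background in reads were recovered from the fold and the p-value, and what the caller counted as a read is not known. The genome-wide background, the lowest that the lists imply, was 0.140 and 0.143 reads after tunicamycin and 0.140 and 0.147 reads after DMSO. Read totals were not used here, so summit reads are not scaled for depth. Reads of different libraries are therefore not directly comparable, and strength was tested between groups as ranks within each list.

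The members stood far apart from other open sites, although many only just passed the distance limit. The median distance to the nearer neighbouring region was 134 kb (quartiles 114 and 174 kb), beside 4.06 kb for all common regions. In 258 of the 424 members the nearer neighbour was less than 150 kb away, in 77 it was over 200 kb away and in 8 over 500 kb. The farther neighbour was at a median of 238 kb. In 35 members it lay over 1 Mb away. Only 6 members were the first or last region of their chromosome.

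The 2 members just inside the limit lay at chr4:88465088-88465233 and at chr8:130214823-130214997. They were 100343 and 100695 bp from the nearer neighbour. The 2 common regions just outside it lay at chr5:103848875-103849316 and at chr20:29901240-29901509, with distances of 99991 and 99924 bp. Of the 2 inside, the first had 7 and 15 reads at its summit after tunicamycin and 17 and 6 reads after DMSO, and the second had 12 and 18 reads after tunicamycin and 9 and 14 reads after DMSO. Of the 2 outside, the first had 17 and 19 reads after tunicamycin and 26 and 20 reads after DMSO, and the second had 21 and 22 reads after tunicamycin and 18 and 19 reads after DMSO.

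Isolated sites of any pattern were a small part of the lists. Of 1225 isolated merged regions, 424 were common and 801 had a peak in 1 to 3 libraries. The isolated share was 1.05% of regions with a peak in 4 libraries, 1.90% with a peak in 3, 2.06% with a peak in 2 and 2.22% with a peak in 1. Neighbours were counted per side of a member, so a region between 2 members counts for both. Of the 842 neighbours counted in this way, 340 (40.4%) were common, beside 51.3% of all merged regions. A peak in 1 library was found for 239 of them (28.4%), beside 22.3% of all merged regions. These shares are descriptions of the 4 lists, with no test. In 35 cases 2 members were each other's neighbours, and no run of consecutive members was longer than 2.

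The share of common regions that were isolated differed between chromosomes. Chromosome X had the highest isolated share, with 23 of its 535 common regions (4.30%), followed by chromosome 13 with 21 of 713 (2.95%) and chromosome 4 with 49 of 1700 (2.88%). Together these 3 chromosomes held 93 members (21.9%), but 7.29% of all common regions. They carried 3.60, 7.50 and 8.94 common regions per Mb between their first and last listed regions. Counted per length, the order was different. Chromosome X held 1.55 members per 10 Mb, close to the 1.49 of chromosome 1 and below the 1.95 of chromosome 12 and the 2.12 of chromosome 8, while chromosomes 4 and 13 held 2.58 and 2.21. At the other end of the isolated share, the 5 chromosomes with an isolated share under 0.4% (15, 17, 19, 20 and 22) held 21 members (4.95%) and 19.7% of all common regions. Chromosome 19, with 35.8 common regions per Mb, had 1 member among 2111 common regions (0.0474%). More open sites per Mb leave less room for gaps of 100 kb, so the order of the chromosomes is partly set by the rule.

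**Figure D1:**
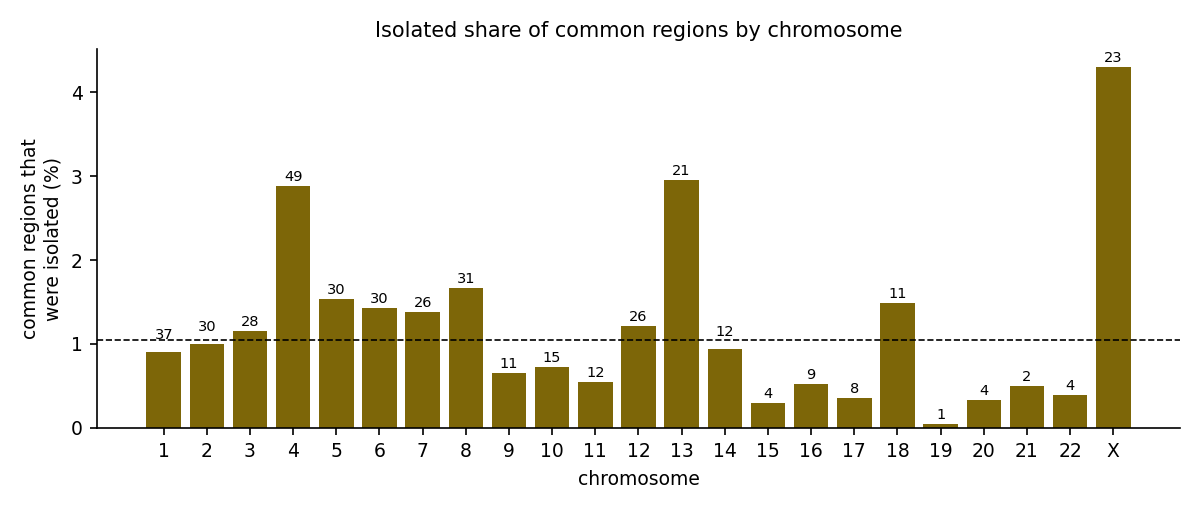
Share of the common regions of each chromosome that were isolated, in percent. Numbers above the bars count the isolated common regions, and the dashed line marks the share over all chromosomes, 1.05%; chromosomes X, 13 and 4 stand highest and chromosome 19 lowest.

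The single member on chromosome 19 lay at chr19:9546051-9546447. It was a weak site, with 11 and 11 reads at its summit after tunicamycin and 9 and 12 reads after DMSO. Chromosome 21 had 2 members, chr21:16855546-16855784, with a mean percentile rank of 69.4, and chr21:30872086-30872386, with one of 40.4. The choice of these 3 regions for the text was made with their values known.

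Isolated common regions were narrower than the other common regions. The median peak was 163.5 and 168 bp wide in the tunicamycin libraries and 168.5 and 162 bp in the DMSO libraries. In the other common regions it was 181 and 187 bp wide after tunicamycin and 180 and 181 bp after DMSO. The difference between the medians was -16.8 ± 3.57 bp (SD, n = 4 libraries) and had the same sign in each library. Peaks of at least 300 bp made up 7.55% and 7.31% of members after tunicamycin and 8.96% and 8.49% after DMSO, beside 12.5% to 14.1% of the other common regions. Peaks under 130 bp made up 15.8% and 16.5% of members after tunicamycin and 21.7% and 21.2% after DMSO, beside 11.2% to 14.6% of the others. No p-value is given for these differences, since all libraries list the same members and the members were chosen with earlier results known.

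The peaks of the members were also lower, while the authors' fold value was close to that of the others. A median member had 14 and 15 reads at its summit after tunicamycin and 13 and 13 reads after DMSO. The other common regions had 19 and 22 reads after tunicamycin and 18 and 19 reads after DMSO, so that the ratio of the medians was 0.706 ± 0.0275 (SD, n = 4 libraries). The local background differed more. It was 0.203 and 0.210 reads in the members after tunicamycin and 0.193 and 0.196 reads after DMSO, a ratio to the other common regions of 0.354 ± 0.00780 (SD, n = 4 libraries). The background sat at the genome-wide level in 17.2% and 20.0% of members after tunicamycin and in 23.3% and 22.9% after DMSO, beside 2.05% to 2.57% of the other common regions. The median fold was 12.4 and 13.1 in the members after tunicamycin and 11.3 and 11.3 after DMSO, and its ratio to the other common regions was 0.961 ± 0.0255 (SD, n = 4 libraries). In the recovery used here, the fold adds a constant to both the reads and the background before dividing. That constant is larger than the median backgrounds, so a close fold does not mean a close ratio of reads to background. The local background is read from the surroundings of a peak, so it is not independent of the rule that chose the members.

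**Figure D2:**
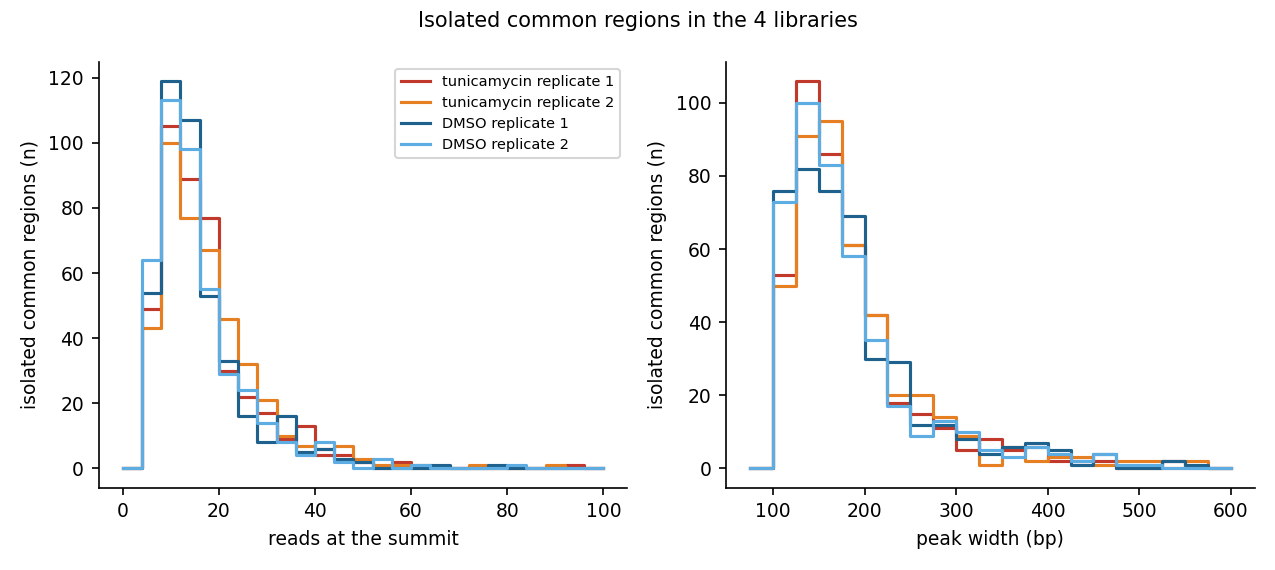
Number of isolated common regions by reads at the summit (left, bins of 4 reads) and by peak width in bp (right, bins of 25 bp), 1 line per library, for the peak with the best q-value. Most members have low and narrow peaks in every library, with medians of 13 to 15 reads and 162 to 168.5 bp, and the highest values are 92 reads and 566 bp.

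In the ranking of all common regions by q-value the members lay below the middle. Their median percentile rank, where 100 is the strongest, was 45.7 and 42.6 in the tunicamycin libraries and 41.9 and 40.5 in the DMSO libraries. The other common regions had medians of 50.1 in all 4 libraries. The gap was -5.89 ± 2.21 percentile points after tunicamycin and -8.90 ± 0.990 after DMSO (SD, n = 2 libraries each). Of the members, 112 (26.4%) ranked above the 50th percentile in every library, beside 34.7% of the other common regions, and 13 (3.07%) ranked above the 90th, beside 5.35%. Members were thus not all weak sites. A summit of 30 reads or more in every library was found for 23 of them, and one under 10 reads in every library for 32 (7.55%), beside 2.55% of the other common regions.

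Higher-ranked members were wider, and at most ranks the members had a smaller median width than the others. Among regions with a mean percentile rank of 75 to 100, the median member was 202 bp wide and the median other region 230 bp. Between 50 and 75 the values were 178 and 190 bp, and between 25 and 50 they were 154 and 170 bp. Below 25 the medians were 152 bp for members and 158.5 bp for the others, and in DMSO replicate 1 the members, at 154 bp, were not narrower than the others, at 153 bp. From the lowest to the highest of these 4 rank classes there were 121, 134, 105 and 64 members.

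**Figure D3:**
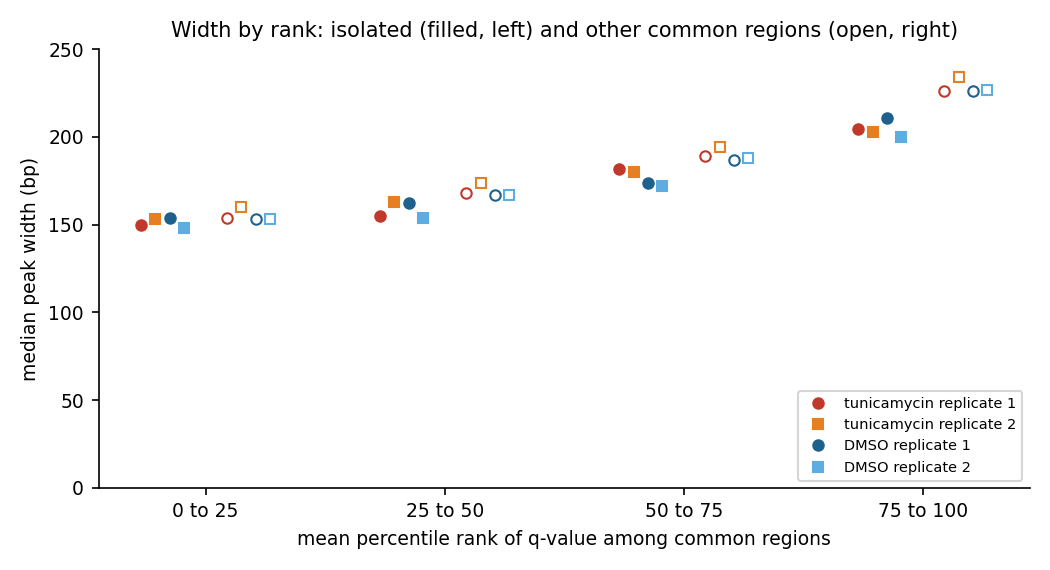
Median peak width in bp (vertical axis, from 0) of isolated common regions (filled symbols, left in each group) and other common regions (open symbols, right), by class of the mean percentile rank, 1 symbol per library. In the highest class the members lie at 200 to 211 bp and the other common regions at 226 to 234 bp.

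The same measures differed with distance over the whole range of common regions. The median local background was lower in each wider distance class. Its mean over libraries was 0.171 ± 0.00343 reads in the 77 members with no neighbour within 200 kb, and 0.892 ± 0.0554 reads in regions with a neighbour within 1 kb (SD, n = 4). Those 77 members had a median of 14 and 12 summit reads after tunicamycin and 11 and 11 reads after DMSO, against 21 and 24 reads after tunicamycin and 20 and 21 reads after DMSO in regions with a neighbour within 1 kb. Median width, as a mean over libraries, was 191 bp in regions with a neighbour within 1 kb, 174 bp at 1 to 5 kb and 184 bp at 5 to 10 kb. It was 171 bp at 50 to 100 kb, 167 bp at 100 to 200 kb and 160 bp in the 77 members. Widths near those of the members were thus also found in regions with closer neighbours. The percentile rank did not follow distance throughout. It was 46.2 ± 0.568 in regions with a neighbour within 1 kb, highest at 55.6 ± 0.667 where the nearer neighbour was 5 to 10 kb away, and 44.1 ± 1.72 at 100 to 200 kb (SD, n = 4). In the same 77 members it averaged 36.5, with a wide spread between libraries, at 45.0 and 27.6 after tunicamycin and 37.0 and 36.2 after DMSO.

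**Figure D4:**
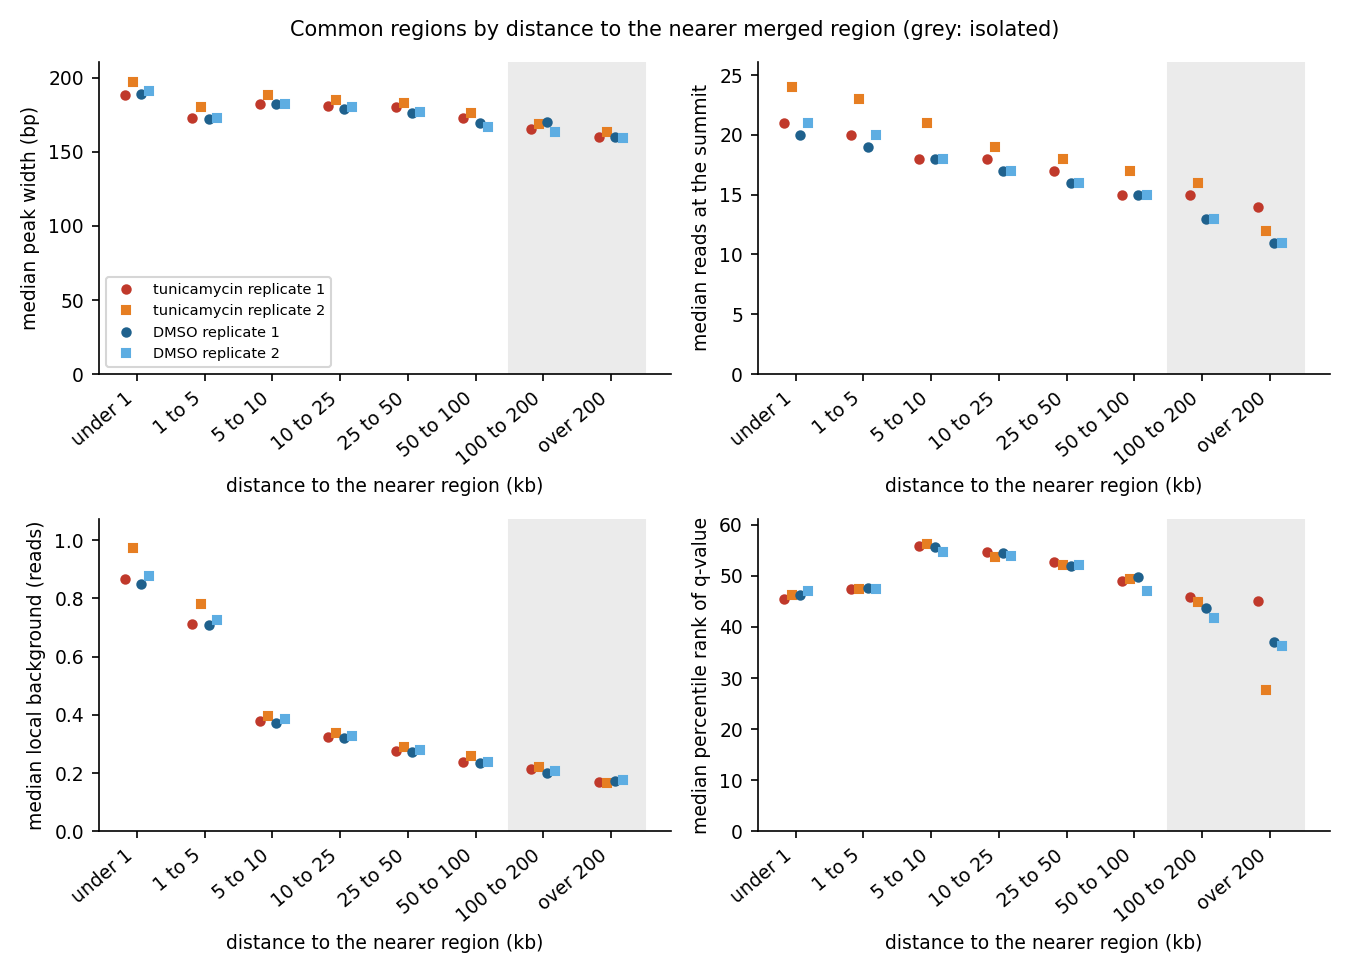
Medians over common regions by distance to the nearer merged region in kb, 1 symbol per library, for peak width (bp), reads at the summit, local background (reads) and percentile rank of the q-value; grey marks the isolated common regions. Summit reads and background are lower at larger distances, while the rank is highest at 5 to 10 kb, at a mean of 55.6.

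Chromosome by chromosome, members had a lower median rank than the other common regions of the same chromosome on 19 of 23 chromosomes and a higher one on 3. Chromosome X was 1 of the 3, with a median rank of 45.3 in its members and 31.7 in its other common regions. Chromosome 13 was another, with 53.6 and 47.5. The third was chromosome 21, with 2 members only.

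The rule joins only peaks that share bases, so the peaks and summits of a member could not lie far apart. Their positions are therefore described beside those of the other common regions, which were joined in the same way. In 410 members (96.7%) each library listed a single peak, beside 95.7% of the other common regions. The summits of the 4 libraries fell within 50 bp of each other in 273 members (64.4%), beside 64.5%, with a median range of 41 bp in members and 39 bp in the others. Summits of the members lay a median of 18.5 bp apart between the tunicamycin libraries, 21 bp between the DMSO libraries and 18 bp between groups. Ranks varied more. The percentile rank of a member varied by a median of 24.7 points over the libraries, beside 21.8 points in the other common regions. Spearman's rho across the 424 members, which share the same libraries, was 0.776 between the tunicamycin libraries, 0.763 between the DMSO libraries and 0.727 to 0.776 between groups. Across the 40023 other common regions it was 0.843, 0.831 and 0.814 to 0.825. Lower summit counts give ranks a larger counting error, and its part in this was not tested.

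The strongest member lay at chr8:107282204-107282891. Its summit carried 92 and 88 reads after tunicamycin and 76 and 80 reads after DMSO, and its mean percentile rank was 99.6. Both tunicamycin counts were above both DMSO counts, but the change of its rank score was 0.24 ± 0.237 (SE), with a limma adjusted p of 0.892. Its nearer neighbour was 110637 bp away. The peaks were 525 and 406 bp wide after tunicamycin and 458 and 451 bp after DMSO, so it was also among the 5 widest members.

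The next was at chr3:18336680-18337008, with 59 and 75 reads after tunicamycin and 65 and 62 reads after DMSO. A region at chr7:76751664-76751970 had 58 and 47 reads after tunicamycin and 48 and 55 reads after DMSO. In both of these the ranges of the groups overlapped. Of the 8 highest-ranked members, 4 more lay at chr2:58675206-58675486, chr17:69760724-69760942, chr4:68411016-68411512 and chr10:18095007-18095143, with mean percentile ranks of 95.8, 94.6, 94.1 and 96.7. The last of the 8, at chr8:57470546-57470683, had 36 and 36 reads after tunicamycin and 33 and 36 reads after DMSO, and its 4 summits fell within 1 bp.

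Strength and width came apart in a few members. The region at chr10:18095007-18095143 had 30 and 40 reads after tunicamycin and 42 and 33 reads after DMSO in peaks of only 131 and 123 bp after tunicamycin and 135 and 104 bp after DMSO. The region at chr8:57470546-57470683 had peaks of 131 and 122 bp after tunicamycin and 122 and 126 bp after DMSO. The other 6 of the 8 highest-ranked members were wider, between 200.2 and 462 bp on average. In 14 members (3.30%) the peak was under 130 bp in every library, beside 2.36% of the other common regions. Only 3 of the 14 ranked above the 50th percentile in every library. They lay at chr4:143906447-143906554, chr10:130829915-130830067 and chr12:83655915-83656034, and were singled out with their values known. The first had 16 and 22 reads after tunicamycin and 19 and 20 reads after DMSO, with a mean width of 103 bp.

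The widest member was at chr6:105307418-105307966. Its peaks were 533 and 501 bp wide after tunicamycin and 549 and 511 bp after DMSO, with 47 and 48 reads at the summit after tunicamycin and 42 and 41 reads after DMSO. A region at chr7:111846265-111846827 had widths of 430 and 563 bp after tunicamycin and 553 and 417 bp after DMSO, and its summits spread over 201 bp. Width did not require strength. The region at chr3:165592356-165592862 was 440 bp wide on average, with a mean percentile rank of 26.5 and summits of 15 and 12 reads after tunicamycin and 12 and 12 reads after DMSO. The other 2 of the 5 widest were the regions on chromosomes 4 and 8 already given.

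The most isolated member stood at chr10:58120956-58121262, with 3476719 bp to the region on its left and 1618158 bp to the one on its right. It was a steady site of 27 and 29 reads after tunicamycin and 28 and 30 reads after DMSO, in peaks of 267 and 287 bp after tunicamycin and 292 and 305 bp after DMSO. Next came 2 members on chromosome X. The region at chrX:49047539-49047677 had 22 and 16 reads after tunicamycin and 13 and 20 reads after DMSO, in narrow peaks of 103 to 139 bp. The region at chrX:95939546-95939894 had 26 and 29 reads after tunicamycin and 25 and 28 reads after DMSO, and a stretch of 10512880 bp without a listed peak lay on its left.

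The other 3 of the 6 most isolated lay on chromosomes 3, 13 and 4. The region at chr3:116489783-116489955 had 11 and 7 reads after tunicamycin and 8 and 10 reads after DMSO. The one at chr13:69501598-69501784 had 11 and 11 reads after tunicamycin and 8 and 6 reads after DMSO, with percentile ranks of 34.1 and 27.2 after tunicamycin and 17.2 and 5.60 after DMSO. The region at chr4:190714275-190714493 was the last listed on its chromosome and had 19 and 20 reads after tunicamycin and 18 and 16 reads after DMSO.

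Isolation in these lists has 2 limits. Peak numbers in the names skip between 1.14% and 1.15% of values in each list, and 12 members, the one on chromosome 4 just given among them, stood beside a skipped number. A peak that is not listed may thus have been their neighbour. The lists also held 96 stretches of over 2 Mb without any peak, of which 83 skipped no number, and 15 members bordered one. Among the 15 were the most isolated member, on chromosome 10, and the members at chrX:49047539-49047677 and chrX:95939546-95939894. In each of them the stretch lay on the side of the farther neighbour. The stretches are not all poor in genes: one runs on chromosome 6 from 28457358 to 33458080, which includes the gene-dense major histocompatibility complex. Why no peak was listed in such stretches was not tested.

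None of the isolated common regions was called changed in rank with tunicamycin. The rule asks for a peak in every list, so a site gained or lost with tunicamycin could not be a member. The q-value ranks of all 40447 common regions were turned into normal scores and compared with limma, with Benjamini-Hochberg adjustment at 0.05. Of the 424 members 0 were called higher and 0 lower, beside 0.0346% of all common regions called higher and 0.0173% called lower. At shares this low, the lack of calls is not a trait of the members. The smallest adjusted p of a member was 0.350. At an unadjusted p under 0.05, limma placed 23 members higher and 16 lower, 5.42% and 3.77%, beside 3.72% and 3.61% of all common regions. The median score change of the members was 0.04, with quartiles of -0.28 and 0.28, and over all common regions the median was 0.00, with quartiles of -0.28 and 0.27. The sign of the median in members depended on the library left out: it was -0.021 without tunicamycin replicate 1 and -0.044 without DMSO replicate 2. The standard error of a member's change had a median of 0.402, so a shift of that size in a single region could not be detected with 2 libraries per group.

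**Figure D5:**
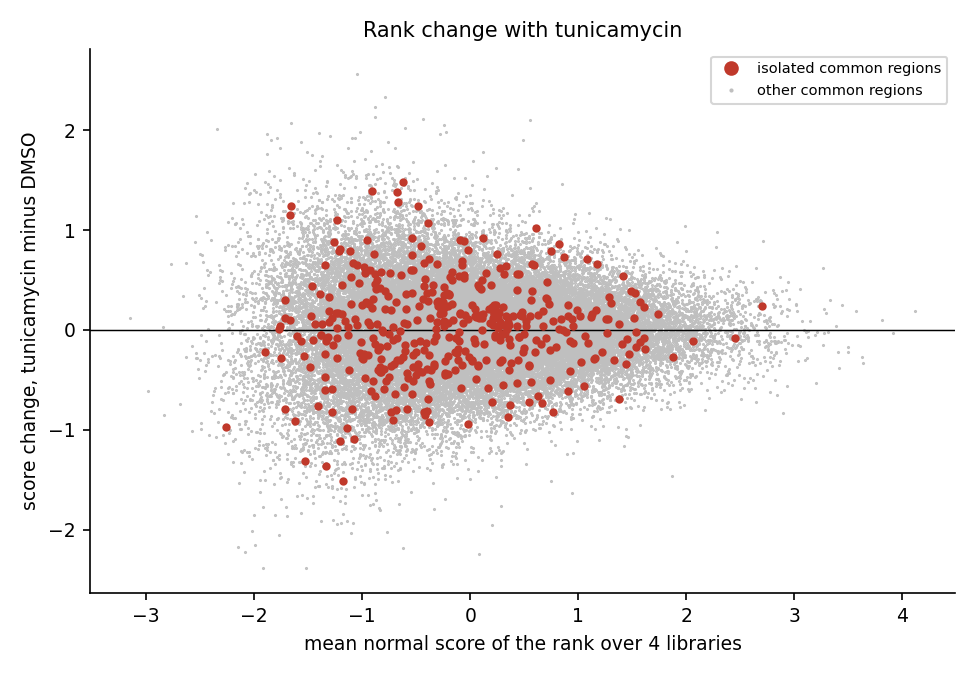
Score change of each common region, tunicamycin minus DMSO (vertical axis), against its mean normal score over the 4 libraries (horizontal axis); red points are isolated common regions and grey points the other common regions. The members lie between -1.51 and 1.48, inside the range of the other regions, which reaches from -2.38 to 2.56.

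Groups without overlap were counted as well. In 71 members both ranks after tunicamycin exceeded both after DMSO (16.7%), beside 18.0% of all common regions, and both were lower in 73 (17.2%), beside 18.3%.

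None of the members with the largest positive and negative score changes passed the test. A region at chr8:20898659-20898861 had 22 and 13 reads after tunicamycin and 5 and 11 reads after DMSO. Its reads and ranks after tunicamycin were all above those after DMSO, and its score change, 1.48 ± 0.474 (SE, limma adjusted p = 0.377), was the largest among members. Without DMSO replicate 2, the change was 2.36 ± 0.541 (SE), with a limma adjusted p of 0.0274. The DMSO group then held replicate 1 alone, which was assumed to vary like the other libraries. A region at chr2:155480443-155480623 had 16 and 11 reads after tunicamycin and 7 and 5 reads after DMSO, and one at chr4:37134064-37134225 had 14 and 16 reads after tunicamycin and 5 and 9 reads after DMSO. Their limma adjusted p-values were 0.443 and 0.408, and their groups did not overlap in reads or ranks either.

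The largest negative score change was -1.51 ± 0.509 (SE, limma adjusted p = 0.413), at chr14:44618891-44619072. It had 5 and 6 reads after tunicamycin and 11 and 10 reads after DMSO. A region at chr13:95640980-95641147 had 4 and 7 reads after tunicamycin and 8 and 11 reads after DMSO. The region at chr3:61016232-61016535 had 4 and 6 reads after tunicamycin and 10 and 9 reads after DMSO. Its peaks were also narrower, 116 and 164 bp after tunicamycin and 304 and 242 bp after DMSO (log2 change -0.98 ± 0.228, SE, limma adjusted p = 0.668). In each of the 3 the reads and ranks after tunicamycin lay below those after DMSO.

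Widths were tested in the same way. In limma on the log2 width, summed over the peaks of a region, 0 members were called wider and 0 narrower, as in all common regions (0.0% each way), and the smallest adjusted p of a member was 0.478. At an unadjusted p under 0.05, 20 members were placed wider and 13 narrower, 4.72% and 3.07%, beside 3.81% and 2.41% of all common regions. Both tunicamycin widths exceeded both DMSO widths in 82 members (19.3%), beside 20.0% of all common regions, and lay below them in 53 (12.5%), beside 13.6%. The median log2 change was 0.03 in members and 0.02 in all common regions.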

How the data were processed

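The authors deposited 1 peak list per library, and per the submitters' processing notes the genome was hg19 and the tools were MACS2 2.2.7.1, Bowtie2 2.3.5.1, Picard 2.18.23, Trim Galore, deepTools and SAMtools. Settings, and any shift of reads for the transposase, were not given in the sources used here. Each deposited peak has a whole-number score, a fold (a ratio), a −log10 p-value and a −log10 q-value. The deposited score equals 10 times the −log10 q-value, cut to its whole part, in 99.95% of peaks or more.

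Python 3.11.15 (pandas 2.3.3, numpy 2.4.6, scipy 1.17.1) merged the peaks and measured edge-to-edge distances. The peak with the best q-value stood for a region. Whole-number summit reads and a background that give the fold and match the −log10 p-value within 0.001 existed for 100% of peaks. Ranks and log2 summed widths were compared over all common regions with limma 3.58.1 (R 4.3.3). The steps were tested on simulated data.

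Named regions were the 8 strongest, 6 most isolated and 5 widest members, the 3 largest positive and negative score changes, and 2 on each side of the distance limit. The members, lists and limits, such as 130 bp, were chosen with earlier results of these data known.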

Additional observations from a re-analysis of the deposited data

How the results depend on the processing

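The number of isolated common regions followed the distance and the kind of neighbour. It was 1584 with a distance of 50 kb, 77 with 200 kb and 1835 when only common regions counted as neighbours. It stayed within 1.5 times 424 under the other 12 settings, from 389 to 572. All 424 were still isolated with peaks up to 250 bp apart merged, which the distance limit of 100 kb fixes in advance. With only peaks of at least 130 bp, 539 regions were isolated, of which 258 were members. The members stayed narrower and lower in rank than the other common regions under all 15 settings. The difference in median width was -21.8 bp with 200 kb, -11.2 bp with only common regions as neighbours and -11.8 bp with only peaks of at least 130 bp, and that in rank was -3.24 points with 50 kb and -13.6 points with 200 kb. Limma called 0 members in rank under every setting except without DMSO replicate 2, where it called 1, so the range over libraries left out was 0 to 1. In width it called 0 under every setting run. The deviations of libraries sharing a replicate number correlated by 0.011 in rank and 0.009 in width. With 2 libraries per group, these values cannot show whether such libraries shared a culture or a batch, and the labels do not say. With the replicate number as a block (replicate block) limma called 0 members in rank, with a median score change of 0.039, and 0 in width. The median score change ranged from -0.044 to 0.093 over libraries left out. Over all common regions it called 35 in rank with the block and 21 without it. Ranked by fold, or with 1 prior spread, it called 0 of all common regions. The 2 settings that left out members beside a skipped peak number (412 left) or with a neighbour over 1 Mb away (389 left) were chosen after seeing the data. Low summit counts limit any change that could be seen in a single member.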
